A study of Rattus norvegicus with 8 samples.

Results

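The 9 genes described here encode transcription factors of the NF-kappa-B and interferon pathways and 1 inhibitor: Rela, Relb, Nfkb1, Nfkb2, Nfkbia, Irf1, Irf3, Irf9 and Stat3. They were found by gene symbol in the authors' deposited analysis table, out of 19721 genes with their own symbol, and the probe set with the highest mean was taken where a gene had several. Relb had 2 probe sets and every other gene had 1, and all 9 genes were above the filter on dim signals. The 8 arrays measured RNA from punches of the dorsal hippocampus of Sprague-Dawley males, young adults of the first generation that never received a drug. In the nicotine-sired group, 4 sons each came from a different father that had taken nicotine by self-administration, at 0.03 mg/kg intravenously for 60 days. In the saline-sired group, 4 sons each came from a different father that was yoked and received saline. Each array stood for 1 litter, and the sons' exact age was not given in the sources used here. Levels are log2 signals of the array, so a difference of 1 is a doubling.

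NF-kappa-B factors are dimers of Rel proteins that wait in the cytoplasm, bound to an inhibitor such as the Nfkbia product, until a cytokine or microbial signal leads to the inhibitor's breakdown. Interferon regulatory factors and STAT proteins carry the signals of viral sensors, interferons and cytokines to the nucleus. In brain tissue these factors act in microglia, astrocytes, vessel cells and neurons, and most of their regulation lies in modification and movement of the proteins, which RNA arrays do not measure.

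Rela rose in nicotine-sired sons, Nfkb1 and Irf9 were higher without passing the test, and the other 6 genes differed by at most 0.12 log2 units in size. By limma with Benjamini-Hochberg adjustment over 15161 kept probe sets, 1 of the 9 genes was called at an adjusted p of 0.05, against 2.06% of all kept probe sets (1.18% higher and 0.884% lower). The groups did not overlap in 2 of the 9 genes, against 14.3% of all kept probe sets. In the nicotine-sired group 7 of the 9 genes lay higher, and their median difference was 0.08, where 54.3% of kept probe sets lay higher with a median difference of 0.02. The call count depended on single arrays. It was 2 when nicotine-sired 4 was left out, and 0 when nicotine-sired 1 or 3 or any 1 saline-sired array was. In the fits with 0 calls 3 of the 9 were at an unadjusted limma p under 0.05. Over all 15161 kept probe sets 2724 to 3618 were at that p in those fits. With median centring and with quantile normalization the count was 1, among 2.29% and 2% of kept probe sets, and 5 and 6 of the 9 lay higher, with medians of 0.03 and 0.04. The median was 0.05 without nicotine-sired 3.

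**Figure D1:**
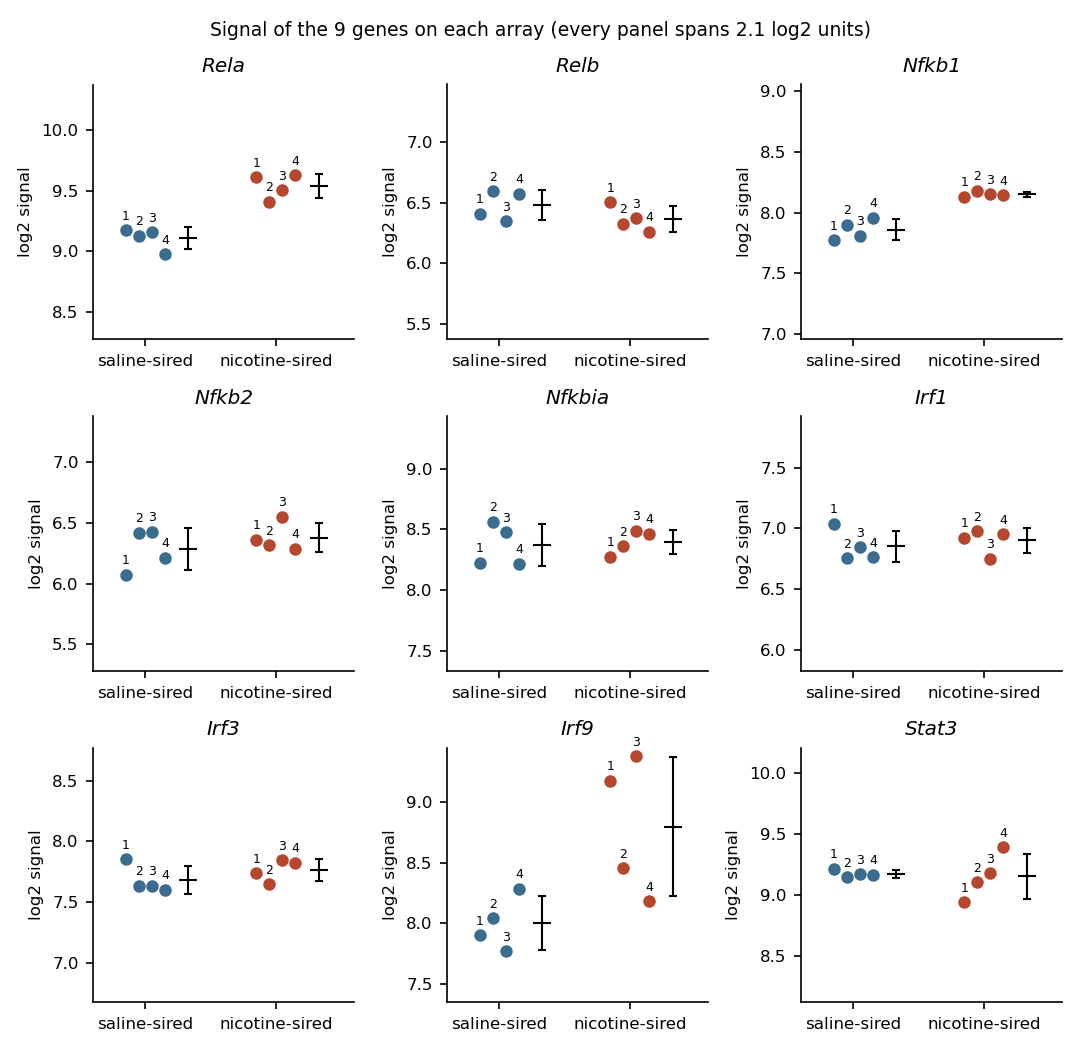
Log2 signal (y axis) of the 9 genes on the 4 saline-sired (blue) and 4 nicotine-sired (red) arrays; small numbers are litter numbers, and the bars beside the points are mean ± SD. For Rela and Nfkb1 every nicotine-sired point lies above every saline-sired point, whereas for Irf9 nicotine-sired 4 (8.18) lies below saline-sired 4 (8.29).

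Rela encodes p65, the subunit that gives the classical NF-kappa-B dimer its activating domain. The annotation in the files places the gene on the forward strand of chromosome 1 at 227928092 to 227938571 (Rnor_5.0). Rela read 9.61, 9.41, 9.50 and 9.63 on nicotine-sired 1 to 4, and 9.17, 9.13, 9.16 and 8.98 on saline-sired 1 to 4. All 4 nicotine-sired values thus lay above all 4 saline-sired values, and the lowest array of all was saline-sired 4. The rise was 0.43 ± 0.07 log2 units (SE, n = 4 per group, 1.35-fold, 95% interval 0.26 to 0.59, limma adjusted p = 0.0323), and Rela ranked 92 of 15161 probe sets by p. The difference ran from 0.38 to 0.47 with each array left out in turn, but the adjusted p was 0.0557 to 0.0994 without nicotine-sired 1 or 3 or any 1 saline-sired array.

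Nfkb1 encodes p105, the precursor of p50, which is the usual partner of p65. Nfkb1 read 8.13, 8.18, 8.15 and 8.14 on nicotine-sired 1 to 4, a spread of 0.02 (SD), and 7.77, 7.90, 7.81 and 7.96 on saline-sired 1 to 4. The groups did not overlap, and the nicotine-sired arrays lay within a narrow band. Nfkb1 was higher by 0.29 ± 0.07 (1.22-fold, 95% interval 0.14 to 0.44), with a limma adjusted p of 0.0594 that missed the threshold. The authors' deposited table, whose test is not described in the sources used here, gives Nfkb1 an adjusted p of 0.0151 and Rela one of 0.00628, in a list where 4.81% of all probe sets are past 0.05 and 2.29% are past it and higher.

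Nfkbia encodes I-kappa-B-alpha, the inhibitor that holds p65 and p50 in the cytoplasm and is itself a classical target of NF-kappa-B. Nfkbia read 8.27, 8.36, 8.49 and 8.46 on nicotine-sired 1 to 4 and 8.22, 8.56, 8.48 and 8.22 on saline-sired 1 to 4. The groups overlapped throughout, and the difference of 0.03 ± 0.10 had a 95% interval from -0.19 to 0.25 (limma adjusted p = 0.891). Its sign turned under both scaling alternatives, to -0.025 with median centring and -0.027 with quantile normalization.

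Relb and Nfkb2 encode the subunits of the alternative NF-kappa-B dimer, Nfkb2 as the precursor p100 of p52. Relb read 6.50, 6.33, 6.37 and 6.26 on nicotine-sired 1 to 4 and 6.41, 6.59, 6.35 and 6.57 on saline-sired 1 to 4. Nfkb2 read 6.36, 6.32, 6.55 and 6.29 on nicotine-sired 1 to 4 and 6.07, 6.42, 6.43 and 6.21 on saline-sired 1 to 4. Both genes were dim, near the filter value of 6.30, and their groups overlapped. Relb differed by -0.12 ± 0.09 (95% interval -0.32 to 0.09) and Nfkb2 by 0.09 ± 0.11 (-0.15 to 0.34), with limma adjusted p-values of 0.47 and 0.623. The second Relb probe set, which lay below the filter with a mean of 5.77, differed by -0.04 ± 0.09.

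Whether partners differed unequally between the groups was compared within arrays for 3 pairs, by two-sided exact permutation over the 70 assignments of arrays to groups, whose smallest p is 0.0286. Rela minus Nfkbia was 1.14 ± 0.14 (SD) on nicotine-sired and 0.74 ± 0.16 on saline-sired arrays, a shift of 0.40 (exact p = 0.0286, Benjamini-Hochberg 0.0857 over the 3 pairs). Rela minus Nfkb1 shifted by 0.14 (exact p = 0.257, adjusted 0.257) and Relb minus Nfkb2 by -0.21 (exact p = 0.171, adjusted 0.257). None of the 3 pairs passed after adjustment, and at the smallest exact p a single pair could not have passed.

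**Figure D2:**
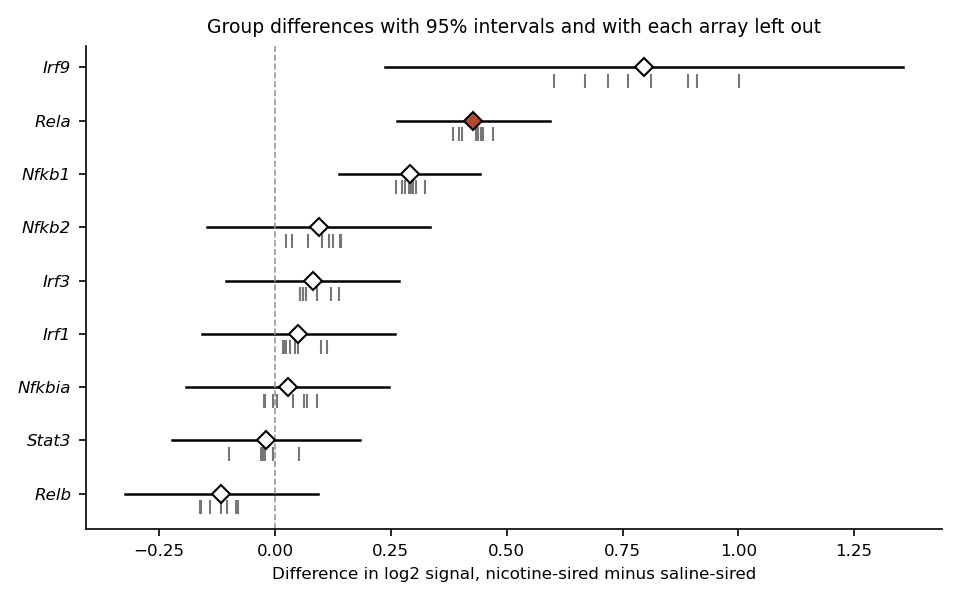
Difference in log2 signal between the groups (x axis) for each of the 9 genes (y axis). Diamonds are the fitted differences, filled where the adjusted p was under 0.05, lines are 95% intervals, and grey ticks are the values with each array left out in turn. The intervals of Irf9, Rela and Nfkb1 lie above 0, and those of the other 6 genes include 0.

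The start regions of these genes are shown because several of the factors are known to act on one another's promoters. RefSeq windows of GRCr8, from 250 bases before to 50 after the gene start, were matched for 8 of the 9 genes. Both strands were searched for the kappa-B consensus, for the core of the interferon-stimulated response element (ISRE), GAAA and GAAA parted by any 2 bases, and for the STAT site known as GAS, TTCNNNGAA. The kappa-B consensus was found in 5 of the 8 windows and in 4.18% of all 33469 windows, GAS in 2 of the 8 and in 8.87%, and the ISRE core in 0 of the 8 and in 3.92%. The matches are printed below in capitals with 8 flanking bases on each side, on the strand of the gene, and no 2 of them overlapped.
Irf1 GAS: agcctgatTTCCCCGAAatgatgag
Irf1 kappa-B: ttcgggccGGGGAATCCCgctaagtg
Irf3 kappa-B: attagaaaGGAAAGTCCCaacgctcg
Irf9 GAS: cacgtgatTTCTAGGAActgcacct
Nfkb1 kappa-B: acgtcagtGGGAATTTCCagccagga
Nfkb2 kappa-B: gtattttcGGGACTTTCCtaagagca
Nfkbia kappa-B: actggcttGGAAATTCCCcgcgcctg
The windows lie, in the same order, at chr10:38417785-38417809 (+), chr10:38417862-38417887 (+), chr1:104616571-104616596 (+), chr15:33065729-33065753 (+), chr2:226805442-226805467 (-), chr1:255108346-255108371 (+) and chr6:78597086-78597111 (-). The Irf3 and Nfkbia matches read as the consensus on the other strand. The Nfkb1 match lies 4 to 13 bases into the transcript and the others lie before the start.

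Rela, the gene that rose, and Stat3 held none of the 3 motifs in their windows. The 250 bases before the Rela start (chr1:212354086-212354335, +) held 76.4% G or C and 48 CpG pairs, against medians of 51.2% and 5 over all windows. Nfkb1 held 74.8% and 33, Irf1 71.2% and 34 and Nfkb2 70% and 17. Irf3, Irf9, Nfkbia and Stat3 held 49.2% to 60.8% and 9 to 14. The Rela bases are shown beside those of Irf1 (chr10:38417685-38417934, +), where capitals mark the GAS and kappa-B matches.
Rela: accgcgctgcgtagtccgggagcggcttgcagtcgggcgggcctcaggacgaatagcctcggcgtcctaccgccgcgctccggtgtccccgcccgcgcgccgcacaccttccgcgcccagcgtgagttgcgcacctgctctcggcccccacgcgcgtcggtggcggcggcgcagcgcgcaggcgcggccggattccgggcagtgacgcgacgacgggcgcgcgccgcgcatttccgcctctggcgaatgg
Irf1: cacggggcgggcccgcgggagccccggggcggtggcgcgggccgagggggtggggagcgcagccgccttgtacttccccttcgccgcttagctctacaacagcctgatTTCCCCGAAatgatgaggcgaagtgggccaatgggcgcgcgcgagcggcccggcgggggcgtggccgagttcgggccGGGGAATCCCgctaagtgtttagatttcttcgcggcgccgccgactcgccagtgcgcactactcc
Of the 5 genes with a kappa-B match, Irf1, Irf3, Nfkb2 and Nfkbia differed by 0.05, 0.08, 0.09 and 0.03 between the groups, each with a 95% interval that included 0, and Nfkb1 by 0.29 with an interval of 0.14 to 0.44.

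Irf9 encodes the DNA-binding part of ISGF3, a complex with STAT2 that answers type I interferon. Irf9 read 9.18, 8.45, 9.38 and 8.18 on nicotine-sired 1 to 4 and 7.90, 8.04, 7.77 and 8.29 on saline-sired 1 to 4. Nicotine-sired 1 and 3 stood about 1 log2 unit above most other arrays, and nicotine-sired 4 lay inside the saline-sired range. Irf9 was higher by 0.80 ± 0.25 (1.74-fold, 95% interval 0.24 to 1.36), a difference that did not pass in limma (adjusted p = 0.105), whereas the authors' deposited table gives it an adjusted p of 0.00815. Without nicotine-sired 4 Irf9 differed by 1.00 and passed (limma adjusted p = 0.036), and without nicotine-sired 3 the difference was 0.60.

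The order of the arrays in Irf9 was close to their order in a score of 9 CA1 pyramidal cell markers. That score, a mean of log2 values centred per gene, was 1.62, 0.51, 1.04 and -0.02 on nicotine-sired 1 to 4 and -0.98, -0.67, -1.46 and -0.05 on saline-sired 1 to 4. Within the saline-sired group the order was the same in both, from litter 4 to 2, 1 and 3, and among the nicotine-sired arrays only 1 and 3 changed places. With the CA1 score as a covariate Irf9 differed by -0.10 ± 0.25, Nfkb1 by 0.22 ± 0.12 and Rela by 0.51 ± 0.13. The Irf9 difference was also smaller with other scores, at 0.25 ± 0.31 with one of microglial markers and 0.12 ± 0.40 with one of vascular markers. Nfkb1 differed by 0.23 ± 0.10 and 0.15 ± 0.12 in those 2 fits. In bulk punches, more cells of a type and more RNA per cell cannot be told apart. The part of the CA1, microglial and vascular markers in the Irf9 difference was not tested.

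**Figure D3:**
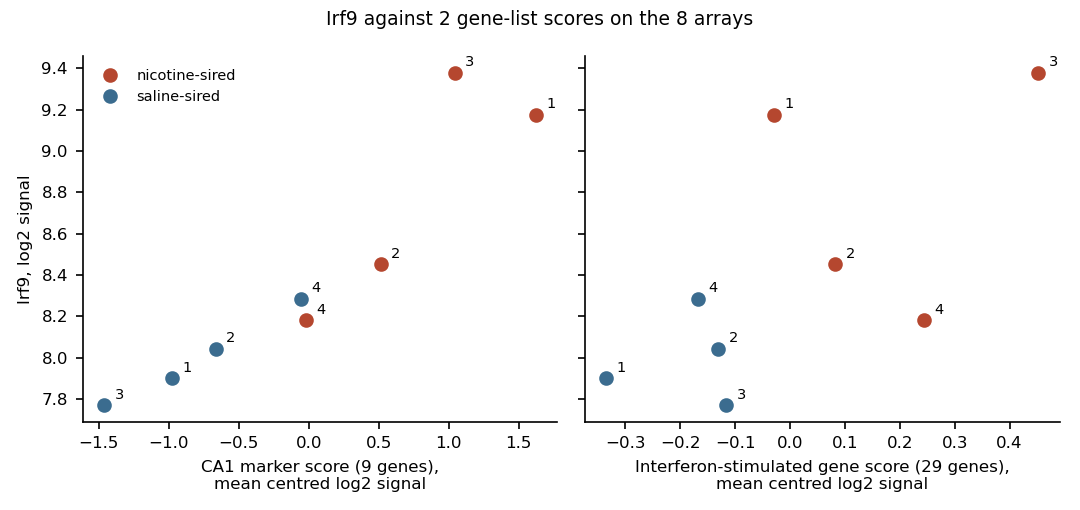
Irf9 log2 signal (y axis) against the score of 9 CA1 markers (left) and of 29 interferon-stimulated genes (right), both as mean log2 signal centred per gene (x axes), on nicotine-sired (red) and saline-sired (blue) arrays with their litter numbers. On the left the points lie near one rising line, with nicotine-sired 3 above nicotine-sired 1; on the right nicotine-sired 1 has a high Irf9 signal (9.18) at an interferon score of -0.03.

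Irf1, an interferon-gamma-induced activator, read 6.92, 6.98, 6.75 and 6.95 on nicotine-sired 1 to 4 and 7.04, 6.75, 6.85 and 6.76 on saline-sired 1 to 4. Irf3, which switches on interferon genes after viral sensing, read 7.74, 7.65, 7.85 and 7.83 on nicotine-sired 1 to 4 and 7.85, 7.64, 7.64 and 7.60 on saline-sired 1 to 4. Both overlapped between the groups, with the highest saline-sired value of each on saline-sired 1. Irf1 differed by 0.05 ± 0.09 (95% interval -0.16 to 0.26, limma adjusted p = 0.775) and Irf3 by 0.08 ± 0.08 (-0.11 to 0.27, 0.582).

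Stat3 carries the signals of the interleukin-6 family and is known for its part in astrocyte reactions. Stat3 read 8.94, 9.11, 9.18 and 9.39 on nicotine-sired 1 to 4 and 9.22, 9.14, 9.17 and 9.16 on saline-sired 1 to 4. The means were nearly equal, but the nicotine-sired arrays spread on both sides of the saline-sired ones, with an SD of 0.19 against 0.03. The difference was -0.02 ± 0.09 (95% interval -0.22 to 0.18, limma adjusted p = 0.916).

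Cell type markers moved with the groups. All 19 kept microglial markers of 22 listed lay higher in nicotine-sired sons, with a score of -0.05 to 0.26 on nicotine-sired and -0.26 to 0.02 on saline-sired arrays. All 22 kept endothelial and pericyte markers of 23 did so too, with scores of 0.07 to 0.18 and -0.21 to 0.04. So did all 9 kept CA1 markers of 10, with a median difference of 1.78. The 15 kept oligodendrocyte markers of 18 were also all higher, with a median difference of 0.46 against 0.26 for microglial and 0.24 for vascular markers. Of the astrocyte markers 16 of 19 kept were higher (median 0.13), and of the dentate granule cell markers 7 of 8 kept were lower (median -0.63). Of 15 markers of blood and perivascular immune cells 5 were above the filter, while the leukocyte marker Ptprc (mean 6.15) and the T-cell and neutrophil markers Cd3e and S100a8 were below it. Cd3e, though dim, read 5.69 ± 0.78 (SD) on nicotine-sired and 4.57 ± 0.27 on saline-sired arrays, without overlap. Of the 5 blood and perivascular markers above the filter 4 were higher (median 0.44). Without the filter 8 of 14 were higher, with a median of 0.05, so Cd3e does not stand for the list. Choroid plexus markers stood at a score of 3.19 on nicotine-sired 4, against at most 0.45 elsewhere. The Rela difference was 0.43 ± 0.12 with the microglial score as a covariate and 0.61 ± 0.12 with the vascular score, and 0.40 without nicotine-sired 4. In the 3 covariate fits limma called 0 of 15161 probe sets, with 687 to 1405 at an unadjusted p under 0.05, and Rela was not called. The part of these cell types in the Rela difference was not tested.

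Genes around these factors were taken from 6 lists of 196 genes, of which 121 were measured above the filter. The filter used the mean of all 8 arrays, so some of the 121 passed it only through the group where they were higher. In limma 4 of the 121 rose (3.31%) and 0 fell, against 2.06% of all kept probe sets, and 94 of the 121 lay higher, with a median difference of 0.15. The 4 were Tlr3, Parp12, Lgals3bp and Vim. The count was 0 without any 1 of the saline-sired arrays. It was 2 without nicotine-sired 1 or 3, 8 without nicotine-sired 2 and 10 without nicotine-sired 4. Without a saline-sired array 31 to 39 of the 121 were at an unadjusted limma p under 0.05. Over all 15161 kept probe sets 2724 to 3618 were at that p in the same fits.

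Of the ligands and receptors upstream of NF-kappa-B, 11 of 21 were above the filter, 9 of them higher, with a median difference of 0.26 that went to 0.16 without nicotine-sired 4. Without the filter the median over all 21 was 0.0007, with 11 higher. Tlr3, the endosomal receptor for double-stranded RNA, read 6.91, 6.99, 7.02 and 7.40 on nicotine-sired 1 to 4 and 6.23, 6.32, 6.48 and 6.47 on saline-sired 1 to 4. Its groups did not overlap, and it rose by 0.70 ± 0.12 (limma adjusted p = 0.0323), and saline-sired 1 lay under the filter value. Tnfrsf1a, the main receptor for tumour necrosis factor, was higher by 0.42 ± 0.11 and Tnfrsf11a, the receptor RANK, by 0.43 ± 0.13, with limma adjusted p-values of 0.0686 and 0.104.

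Between receptors and dimers, 25 of 33 adaptors, kinases and inhibitors were above the filter, and 0 passed in limma (6 at an unadjusted p under 0.05). Over all 15161 kept probe sets 3638 were at an unadjusted p under 0.05 in the same fit. Traf6, a ubiquitin ligase of the Toll-like receptor route, differed by 0.18 ± 0.06, Irak3, an inhibitory kinase homologue, by 0.40 ± 0.15 and Traf1, an adaptor of tumour necrosis factor receptors, by -0.27 ± 0.09. Of 28 known target genes of NF-kappa-B 14 were above the filter, with 9 higher and 5 lower, and 0 passed (8 at an unadjusted p under 0.05). The median difference of the targets was 0.05, and its sign turned without the filter (-0.02) and with median centring (-0.0038). The groups did not overlap in 4 of the 14, all lower in nicotine-sired sons, against 6.15% of kept probe sets in that direction, and the 3 targets with the smallest p were among them. Ptgs2, the inducible cyclooxygenase that hippocampal neurons also express, read 9.26, 10.80, 10.27 and 10.20 on nicotine-sired 1 to 4 and 11.05, 10.89, 11.14 and 10.90 on saline-sired 1 to 4. Ptgs2 differed by -0.86 ± 0.26 (limma adjusted p = 0.1), and by -0.17 ± 0.37 with the CA1 score as a covariate. With each array left out in turn the difference ran from -1.08 to -0.57, the latter without nicotine-sired 1. Among these fits Ptgs2 passed only without nicotine-sired 2 (limma adjusted p = 0.0382). Cd83, a surface marker of activated immune cells, differed by -0.41 ± 0.13 and Sod2, the mitochondrial superoxide dismutase, by -0.21 ± 0.07.

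Of the interferon and JAK-STAT pathway, 33 of 44 genes were above the filter, 25 of them higher with a median of 0.07. In limma 0 passed and 9 were at an unadjusted p under 0.05, against 3638 of all 15161 kept probe sets. Stat2, a partner of Irf9 in ISGF3, read 8.69, 8.85, 9.01 and 8.76 on nicotine-sired 1 to 4 and 8.49, 8.51, 8.49 and 8.42 on saline-sired 1 to 4. The groups did not overlap, and Stat2 was higher by 0.35 ± 0.08 (limma adjusted p = 0.0537). Stat6, the interleukin-4 responsive STAT, was higher by 0.53 ± 0.14 and Ifngr1, a chain of the interferon-gamma receptor, by 0.31 ± 0.09, with limma adjusted p-values of 0.0789 and 0.0839.

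**Figure D4:**
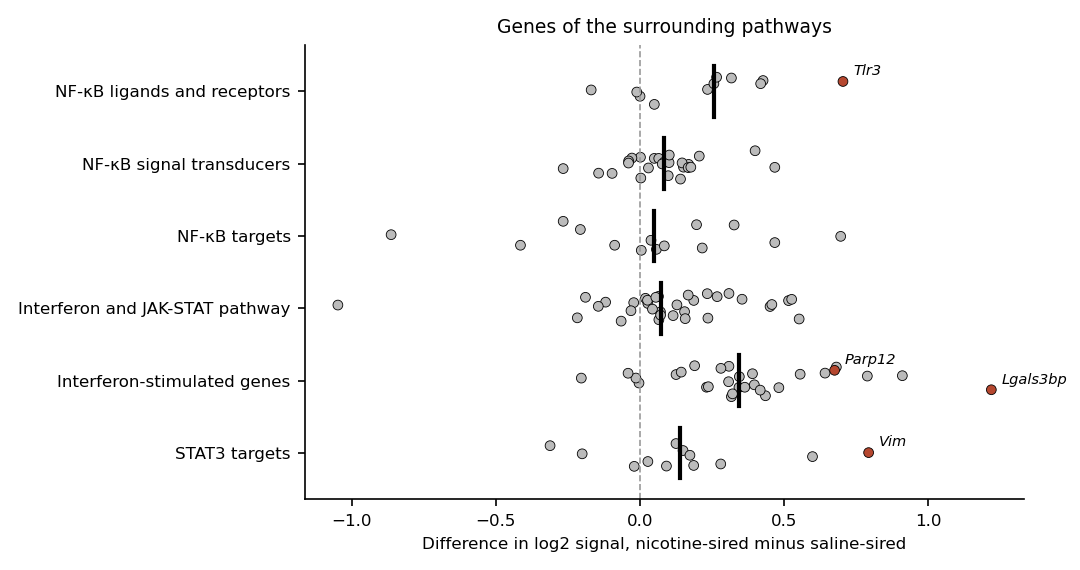
Difference in log2 signal, nicotine-sired minus saline-sired (x axis), for the genes above the filter in each of 6 pathway lists (rows). Each point is a gene, red where the adjusted p was under 0.05, and black bars are list medians, which run from 0.05 for NF-kappa-B targets to 0.34 for interferon-stimulated genes.

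Interferon-stimulated genes had a median difference of 0.34 over 29 of 54 genes, with 25 of the 29 higher. Without the filter the median over 51 genes was 0.31, with 39 higher. The groups did not overlap in 7 of the 29, all higher, against 8.19% of kept probe sets in that direction, and 2 of the 29 rose in limma, against 1.18% of kept probe sets. Parp12, an ADP-ribosyltransferase induced by interferon, read 7.59, 7.74, 7.87 and 8.03 on nicotine-sired 1 to 4 and 6.94, 7.15, 7.18 and 7.25 on saline-sired 1 to 4, and rose by 0.68 ± 0.11 (limma adjusted p = 0.031). Lgals3bp, a secreted galectin-binding protein, read 8.45, 8.50, 9.38 and 9.57 on nicotine-sired 1 to 4 and 7.99, 7.92, 7.51 and 7.61 on saline-sired 1 to 4. It rose by 1.22 ± 0.26 (2.33-fold, limma adjusted p = 0.0468), with adjusted p-values of 0.0519 with median centring and 0.0561 with quantile normalization. Trim25, a ubiquitin ligase of the RIG-I route, was higher by 0.39 ± 0.10 (limma adjusted p = 0.0639).

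The mean log2 signal of these 29 genes, centred per gene, did not follow Irf9 on every array. Their score was -0.03, 0.08, 0.45 and 0.24 on nicotine-sired 1 to 4 and -0.33, -0.13, -0.12 and -0.17 on saline-sired 1 to 4. Nicotine-sired 3 was thus highest in both Irf9 and the score, while nicotine-sired 1 had the next highest Irf9 signal and a score below that of the other nicotine-sired arrays. The list's median, the highest of the 6 on all arrays, was 0.26 without nicotine-sired 3 and 0.08 with the vascular score as a covariate, where the receptors and ligands stood at 0.27 and 0.22. In the promoter windows, the ISRE core was found in 32 of 46 genes of this list, against 3.92% of all windows, and in 3 of 24 NF-kappa-B targets, whose windows held the kappa-B consensus in 10 of 24 against 4.18% of all.

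Of 22 known STAT3 targets 12 were above the filter, with a median difference of 0.14. Vim, the intermediate filament vimentin of astrocytes and vessel cells, read 11.38, 11.11, 11.13 and 11.64 on nicotine-sired 1 to 4 and 10.61, 10.60, 10.62 and 10.27 on saline-sired 1 to 4. It rose by 0.79 ± 0.13 (1.73-fold, limma adjusted p = 0.029). Bcl6, a transcriptional repressor, was higher by 0.60 ± 0.16 and Gfap, the astrocyte filament, by 0.19 ± 0.07, with limma adjusted p-values of 0.0813 and 0.133. With the CA1 score as a covariate Bcl6 differed by -0.04 ± 0.13 and Vim by 1.08 ± 0.19.

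The named genes most like Rela over the 8 arrays, by the root mean square difference of profiles centred on their own means, were Zdhhc9 (0.063), Ftl1l5 (0.066), Vezf1 (0.071), Lap3 (0.072) and Fancd2 (0.076), where the median over all kept named probe sets was 0.254. Zdhhc9 encodes a palmitoyltransferase and Ftl1l5 belongs to the ferritin light chains, where near-identical genes make the probes' target uncertain. Vezf1 encodes a zinc finger factor, Lap3 an aminopeptidase and Fancd2 a DNA repair protein. By the same measure Nfkb1 stood at 0.145 from Rela, and the closest pair among the 9 genes was Nfkb2 with Nfkbia at 0.092.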

How the data were processed

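RNA from 8 dorsal hippocampal punches was hybridised to Affymetrix arrays as biotinylated cDNA, per the labels' protocols. The deposited tables hold log2 signals for 36685 probe sets, with a largest difference between the tables of 0. The submitters' processing notes name MAS5. How signals were summarised and normalized, the array model and the test behind the authors' p-values were not given in the sources used here. Headers of the authors' deposited table also name p-values, step-up adjusted p-values, a linear ratio and a signed fold score.

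Control classes were left out, and of 30323 gene-class probe sets the 15161 with a mean above the median (6.30) were kept. Median antigenomic background was 4.32 to 4.53. Groups were compared with limma 3.58.1 in R 4.3.3 (lmFit, then eBayes with trend; tests were two-sided), adjusting p by Benjamini-Hochberg over all kept probe sets. ± after a difference is its standard error. The fit was tested on simulated data, where it recovered 90.8% of differences of 1 log2 unit and 57.4% of the smaller ones simulated. Of its calls there 5.07% were false. Genes were simulated as independent, so the test did not cover genes that vary together. The number of arrays limits the precision. 

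The members and lists were chosen with earlier results of these data known. Named list genes were the 3 with the smallest p in each list and every called gene, and 5 genes most like Rela. Lists used 1 probe set per gene. Alternatives covered filters, scaling, a pseudocount of 16 on back-transformed values, litter number as a block, array weights, no trend, marker scores as covariates, the other Relb probe set and each array left out.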

Additional observations from a re-analysis of the deposited data

Results flagged for a closer look

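Among 18 groups of 4 values, the saline-sired and nicotine-sired arrays of the 9 genes, only 1 had a value well apart from its group, and about 1 in 20 such groups (0.9 of 18) would by chance. That value was Irf3 on saline-sired 1, at 7.85, while saline-sired 2 to 4 read 7.64, 7.64 and 7.60. Without that array Irf3 differed by 0.14 between the groups in place of 0.08, and neither value passed.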

How the results depend on the processing

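Rela, Relb, Nfkb1 and Irf3 kept their direction under all alternatives run. Of the 9 genes, limma called 3 with array weights (Rela, Nfkb1 and Irf9, in a fit that called 7.92% of all probe sets), 0 with the replicate block (3 at an unadjusted p under 0.05), 0 with each of the CA1, microglial and vascular scores as a covariate (2, 1 and 1), and from 0 to 2 with 1 array left out. Of the pathway genes it called 18 with array weights, 2 with the stricter filter, where 44 were left to test, 0 with the replicate block (40 at an unadjusted p under 0.05), 0 with each covariate (15, 6 and 6) and 0 to 10 with 1 array left out. The directions that turned were those of small differences and of Irf9: Nfkb2 to -0.0036 with the vascular score; Nfkbia to -0.027 with quantile normalization, -0.025 with median centring and -0.024 to 0.091 over left-out arrays; Irf1 to -0.0021 with median centring; Irf9 to -0.10 with the CA1 score; and Stat3 to 0.21, 0.064 and 0.044 with the CA1, microglial and vascular scores and -0.10 to 0.051 over left-out arrays. The cause was not tested. The litter numbers did not appear to pair the arrays, as the deviations of same-numbered arrays correlated at -0.14, 0.18, -0.05 and -0.17. So few correlations cannot exclude a pairing in handling. With the litter number as a block limma called 0 of 15161 probe sets, with 3326 at an unadjusted p under 0.05. Rela was then at an adjusted p of 0.098. With the CA1, microglial and vascular scores as covariates 1405, 687 and 762 of the probe sets were at an unadjusted limma p under 0.05. Over all probe sets, where 313 were called, limma called 155 without the filter, 181 of 7581 with the stricter filter, 1201 with array weights, 0 with each covariate and 0 to 737 with 1 array left out. The 3 pair shifts kept their direction under all alternatives run. They also stayed short of the threshold, but a single pair could not have passed it even at the smallest exact p. Over left-out arrays they were 0.34 to 0.47 for Rela minus Nfkbia, 0.06 to 0.19 for Rela minus Nfkb1 and -0.30 to -0.15 for Relb minus Nfkb2. Relb and Nfkb2 lay near the filter value, so the sizes of their differences are less sure. Labels do not say whether the arrays shared a hybridisation batch.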
